A study of Mus musculus with 6 samples.

Results

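The BCL2 family apoptosis regulators were taken as the 10 genes named *Bcl2*, *Bcl2l1*, *Bcl2l2*, *Mcl1*, *Bax*, *Bak1*, *Bok*, *Bid*, *Bad* and *Bcl2l11*, out of 41721 genes in the count table. RNA was sequenced from cultured mouse aortic smooth muscle cells (MASMCs) of the abdominal aorta. There were 3 libraries of Pdk4fl/fl cells, in which loxP sites flank exons 4 to 6 of *Pdk4*, and 3 libraries of Pdk4SMKO cells. By the study's methods, Pdk4SMKO mice carry the same floxed allele and *Myh11*-Cre. *Pdk4* encodes pyruvate dehydrogenase kinase 4, which phosphorylates and inhibits the pyruvate dehydrogenase complex. All 6 libraries came from cells treated with Ang II (angiotensin II), which the study's methods give as 1 μM for 48 h, so no untreated library was compared. Per the study's methods, the Cre is inducible by tamoxifen, was driven by the promoter of the smooth muscle myosin gene *Myh11* and lies on the Y chromosome, and tamoxifen was given to both genotypes. The cells were isolated from mice of 10 weeks on a C57BL/6J background and used between passages 4 and 8. The comparison answers how the transcripts of the family differed between Pdk4SMKO and Pdk4fl/fl cells under Ang II.

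Proteins of the BCL2 family govern whether the outer mitochondrial membrane is opened during apoptosis. The guardians (BCL2, BCL-XL, BCL-W and MCL1) bind and restrain the pro-apoptotic members, the effectors (BAX, BAK and BOK) form the pores through which cytochrome c leaves the mitochondria, and the BH3-only proteins (BID, BAD and BIM among the members) carry upstream signals to both. In vascular smooth muscle, loss of cells by apoptosis is a known feature of aneurysm. Members bind one another through a short helix, the BH3 domain, whose core is a leucine followed after 3 residues by a small residue and an aspartate.

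The coding sequence of this core is shown for each member because it is the feature by which the 3 roles interact. The 24 bases (8 codons) are from GENCODE M21 transcripts on GRCm38, 5′ to 3′ on the coding strand, and the capitals mark codons 5 and 6. These codons read glycine and aspartate in 9 of the 10 members. In *Bad* the first of them encodes serine, and in *Bcl2l2* the core opens with a methionine codon in place of leucine. The search allowed leucine or methionine first, then glycine or serine followed by aspartate, and an acidic or small residue after that. Each transcript held 1 match to this pattern, which already admitted the exceptions in *Bad* and *Bcl2l2*. The core of *Bok* spans an exon junction, while the other 9 lie within 1 exon.
Bcl2: ctccgccgggctGGGGATgacttc
Bcl2l1: ctgagagaggcaGGCGATgagttt
Bcl2l2: atgcgggctgctGGAGACgagttt
Mcl1: ctgcggcgcgtgGGCGACggcgtg
Bax: ctccggcgaattGGAGATgaactg
Bak1: cttgctctcatcGGAGATgatatt
Bok: ctgctgcgcttgGGAGATgagctg
Bid: ctcgcccaaataGGCGATgagatg
Bad: ctccgaaggatgAGCGATgagttt
Bcl2l11: ctgcggcggatcGGAGACgagttc

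The promoters of 3 members are shown because these genes moved the furthest among the guardians and the effectors: *Bcl2* and *Mcl1*, which were higher in Pdk4SMKO cells, and *Bax*, which was lower. Each is the 250 bases before the RefSeq start on GRCm38.p6, read on the gene's strand. *Bcl2* is chr1:106714291-106714540 on the minus strand, *Mcl1* is chr3:95658471-95658720 on the plus strand and *Bax* is chr7:45466899-45467148 on the minus strand. Bases shortly after the start were found in a GENCODE transcript of the gene for *Bcl2* and *Bax* and not for *Mcl1*, whose start was thus not matched. Capitals mark GC boxes (GGGCGG, on either strand) and, in *Bax*, an E-box (CACGTG).
Bcl2: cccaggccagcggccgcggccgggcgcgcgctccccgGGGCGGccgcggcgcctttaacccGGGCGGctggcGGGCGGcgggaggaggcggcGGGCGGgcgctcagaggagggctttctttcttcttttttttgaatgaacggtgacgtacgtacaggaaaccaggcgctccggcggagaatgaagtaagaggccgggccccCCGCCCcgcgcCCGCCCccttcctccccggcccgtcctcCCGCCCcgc
Mcl1: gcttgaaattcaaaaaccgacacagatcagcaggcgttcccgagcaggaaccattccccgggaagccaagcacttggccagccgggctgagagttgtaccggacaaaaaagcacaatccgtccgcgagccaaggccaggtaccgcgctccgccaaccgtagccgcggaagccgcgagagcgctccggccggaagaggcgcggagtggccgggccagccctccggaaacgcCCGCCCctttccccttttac
Bax: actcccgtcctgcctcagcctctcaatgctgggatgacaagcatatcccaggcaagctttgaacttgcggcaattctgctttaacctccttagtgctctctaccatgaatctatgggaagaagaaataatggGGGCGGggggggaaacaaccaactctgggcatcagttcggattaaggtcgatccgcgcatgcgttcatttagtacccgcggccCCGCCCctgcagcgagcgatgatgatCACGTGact
RefSeq gave 14 starts for the 10 members. A GC box lay within the 250 bases of 9 of the 14 starts, belonging to 8 genes, against 32.7% of 32851 mouse promoters of the same length. The *Bcl2* promoter held 7 GC boxes and was 74.8% G or C with 36 CpG dinucleotides, where the medians over all promoters were 52.4% and 6. That of *Mcl1* held 1 GC box and 26 CpG (64.4% G or C), and that of *Bax* held 2 GC boxes and 14 CpG (54.0%). The E-box was found in *Bax* alone among the members, against 6.02% of promoters. The CCAAT box (CCAAT, 33.8% of promoters) was found at 3 starts of 2 members. No member held TATAAA (12.4%), the AP-1 letters TGANTCA (6.75%) or the CRE letters TGACGTCA (1.55%), each searched on both strands. These are matches of letters, not measured binding.

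Several measurements on the libraries touch every result. Total counts per library were between 16526044 and 22481670, and the libraries of each genotype correlated with one another at 0.981 or more on log2 CPM (CPM being the counts of a gene relative to the TMM-adjusted library size), against 0.748 or less between genotypes. *Pdk4* had 570, 639 and 421 counts in the Pdk4fl/fl libraries and 110, 182 and 141 in the Pdk4SMKO libraries. Each Pdk4SMKO library was thus below each Pdk4fl/fl library in the targeted gene, counted over all its exons. With edgeR's quasi-likelihood test and Benjamini-Hochberg adjustment, 4616 of the 14085 genes tested were higher and 3733 were lower in Pdk4SMKO cells (adjusted p under 0.05 together with at least 2-fold), so 59.3% of all genes tested were called. *Xist*, the RNA made from the inactive X chromosome of female cells, had 3, 4 and 5 counts in Pdk4fl/fl and 610, 347 and 321 in Pdk4SMKO libraries, although the study's methods say that Pdk4SMKO mice can only be male. The genotypes thus also differed in a marker of sex, and the parts of genotype and of this difference in the results that follow cannot be told apart. Of the 41721 genes 0 lie on the Y chromosome, so its presence could not be checked in either genotype. Smooth muscle markers summed to between 785 and 811 CPM in Pdk4fl/fl and between 723 and 954 CPM in Pdk4SMKO libraries. *Acta2*, the smooth muscle actin used to identify the cells, was at 233 ± 40.8 and 701 ± 74.5 CPM (SD, n = 3), while *Myh11*, the defining gene of mature smooth muscle, was at only 0.613 ± 0.125 and 2.39 ± 0.290 CPM. Of the 8 smooth muscle markers 4 were higher (*Acta2*, *Myh11*, *Lmod1*, *Des*) and 3 lower. The contractile genes *Tagln* (253 ± 38.6 and 52.7 ± 29.7 CPM), *Smtn* (280.0 ± 59.5 and 57.5 ± 10.0 CPM) and *Cnn1* (19.5 ± 1.15 and 6.88 ± 6.22 CPM) were the lower ones. Other cell type markers that moved with genotype are given after the members.

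All 10 members passed the filter on low counts. By the same call rule, 3 rose, 3 fell and 4 were not called, so 60.0% of the members were called against 59.3% of all genes tested (32.8% higher and 26.5% lower). By the adjusted p alone 8 of 10 members (80.0%) passed, against 79.1% of all genes, with 5 members higher (background 42.0%) and 3 lower (background 37.1%). Likewise in 8 members the 3 libraries of one genotype did not overlap those of the other, against 81.8%. The share of members that changed was thus close to that of all genes. The 3 that rose were guardians and the 3 that fell were the effectors, while the BH3-only members had no common direction. No test between roles was made. The 4 guardians had a median log2 fold change of 2.56, the 3 effectors of -1.93 and the 3 BH3-only genes of 0.20, beside 0.35 over all members and 0.12 over all genes tested.

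**Figure D1:**
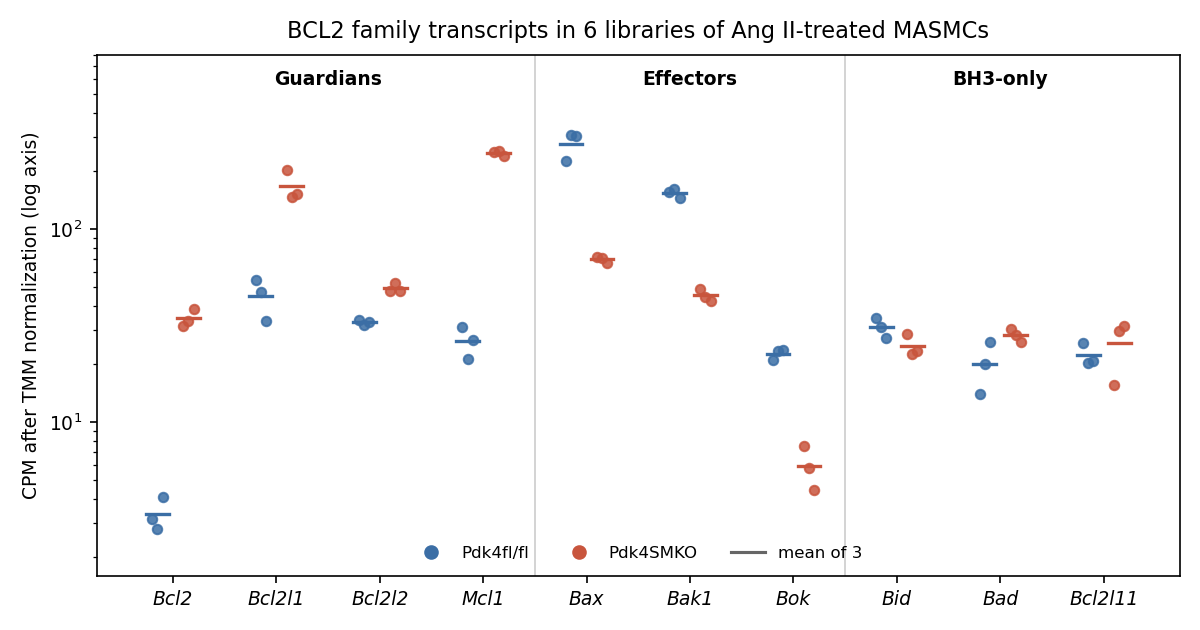
CPM after TMM normalization (log axis) of the 10 members in each library, with Pdk4fl/fl in blue, Pdk4SMKO in red and a bar at the mean of 3 libraries. The 3 red points lie above the 3 blue points for all 4 guardians and below them for all 3 effectors, while *Bid* and *Bcl2l11* overlap and *Bad* nearly does.

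Among the guardians, *Mcl1*, *Bcl2* and *Bcl2l1* rose in Pdk4SMKO cells and *Bcl2l2* was higher by less than 2-fold. *Mcl1* (MGP_C57BL6NJ_G0028009, chromosome 3 from 99975787 to 99980175, all positions of genes being those of the C57BL/6NJ annotation) encodes a short-lived guardian that binds BAK and BIM. It was measured at 31.1, 21.2 and 26.6 CPM in the Pdk4fl/fl libraries and at 249.7, 253 and 238 CPM in the Pdk4SMKO libraries. All 3 Pdk4SMKO values were far above the Pdk4fl/fl values and close to one another. The means were 26.3 ± 4.94 and 247 ± 7.81 CPM (SD, n = 3), 9.40-fold apart, with a log2 fold change of 3.23 (SE 0.16, edgeR adjusted p = 5.68e-08).

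*Bcl2* (MGP_C57BL6NJ_G0016770, chromosome 1 from 112847969 to 113035252), the founding member of the family, was the least abundant of the 10 in Pdk4fl/fl cells. Its counts there were 47, 51 and 54, so sampling error is larger than for the other guardians, and they were 717, 675 and 784 in Pdk4SMKO cells. In CPM these were 3.13, 2.80 and 4.09 against 31.5, 33.6 and 38.5, without overlap. The means of 3.34 ± 0.667 and 34.5 ± 3.58 CPM (SD, n = 3) were 10.3-fold apart, and the log2 fold change was 3.38 (SE 0.19, edgeR adjusted p = 1.42e-07).

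*Bcl2l1* (MGP_C57BL6NJ_G0027102, chromosome 2 from 161925370 to 161980067) encodes BCL-XL and, by alternative splicing, the pro-apoptotic BCL-XS. The table counts the gene as a whole and does not separate the isoforms. Its levels were 54.7, 47.4 and 33.6 CPM in Pdk4fl/fl libraries and 202, 147 and 152 CPM in Pdk4SMKO libraries. Here the replicates were more spread than for *Mcl1*, with means of 45.2 ± 10.7 and 167 ± 30.2 CPM (SD, n = 3), yet the groups did not overlap. The log2 fold change was 1.88 (SE 0.20, edgeR adjusted p = 9.45e-06), a 3.69-fold rise.

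*Bcl2l2* (MGP_C57BL6NJ_G0021728, chromosome 14 from 51330273 to 51336726), which encodes BCL-W, was the guardian with the smallest difference. It stood at 33.9, 32.0 and 33.1 CPM in Pdk4fl/fl and at 47.7, 52.8 and 47.7 CPM in Pdk4SMKO libraries. The groups did not overlap and the adjusted p passed (log2 fold change 0.58, SE 0.12, edgeR adjusted p = 0.00109), but at 1.50-fold the gene was not called. The 95% intervals of the log2 fold change, 0.32 to 0.84 for *Bcl2l2* and 1.44 to 2.32 for *Bcl2l1*, did not meet.

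All 3 effectors fell, between 3.40- and 3.98-fold. *Bax* (MGP_C57BL6NJ_G0032707, chromosome 7 from 47998698 to 48003901) encodes the effector that moves from the cytosol to mitochondria when activated. It was at 225, 306 and 302 CPM in Pdk4fl/fl and at 72.0, 70.6 and 66.7 CPM in Pdk4SMKO libraries. The 3 Pdk4SMKO values lay within a few CPM of one another, all far below the lowest Pdk4fl/fl library. The means were 278 ± 46.0 and 69.8 ± 2.72 CPM (SD, n = 3), a 3.98-fold lower level with a log2 fold change of -1.99 (SE 0.14, edgeR adjusted p = 7.05e-07).

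*Bak1* (MGP_C57BL6NJ_G0023820, chromosome 17 from 27360683 to 27371210) encodes BAK, the effector that resides in the mitochondrial membrane. Its values were 156, 161 and 146 CPM in Pdk4fl/fl and 48.9, 44.3 and 42.7 CPM in Pdk4SMKO libraries, without overlap. The log2 fold change was -1.77 (SE 0.12, edgeR adjusted p = 3.97e-07), or 3.40-fold. The whole of *Bak1* is overlapped on the opposite strand by *Ggnbp1*, which had between 10 and 71 counts per library against 870 or more for *Bak1*. It is not known whether strand was used in counting.

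*Bok* (MGP_C57BL6NJ_G0016742, chromosome 1 from 98945134 to 98956397), an effector found largely at the endoplasmic reticulum, was the least abundant of the 3. It was at 20.9, 23.3 and 23.6 CPM in Pdk4fl/fl and at 7.55, 5.77 and 4.46 CPM in Pdk4SMKO libraries, again without overlap. Its log2 fold change was -1.93 (SE 0.21, edgeR adjusted p = 1.19e-05), or 3.82-fold. The 95% intervals of the 3 effectors overlapped (-2.31 to -1.67 for *Bax*, -2.03 to -1.50 for *Bak1* and -2.39 to -1.47 for *Bok*).

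None of the 3 BH3-only members was called. *Bid* (MGP_C57BL6NJ_G0031649, chromosome 6 from 126982053 to 127008967), which caspase-8 cleaves to link death receptors to mitochondria, was at 34.7, 31.2 and 27.4 CPM in Pdk4fl/fl and at 28.8, 22.6 and 23.4 CPM in Pdk4SMKO libraries. The genotypes overlapped, and the log2 fold change was -0.32 (95% interval -0.66 to 0.02, edgeR adjusted p = 0.0793). The part of *Bid* shared with *Bcl2l13* on the opposite strand is 913 bases long, and *Bcl2l13* had 871 to 1424 counts per library, more than *Bid* itself (362 to 655).

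*Bad* (MGP_C57BL6NJ_G0025186, chromosome 19 from 4127255 to 4137297) encodes a BH3-only protein that survival kinases silence by phosphorylation. It was at 13.9, 20.0 and 26.0 CPM in Pdk4fl/fl and at 30.3, 28.4 and 26.1 CPM in Pdk4SMKO libraries. The groups nearly met, at 26.0 and 26.1 CPM. The log2 fold change of 0.50 (SE 0.21, edgeR adjusted p = 0.0472) passed by the adjusted p alone, and without one library the adjusted p ranged from 0.00502 (Pdk4fl/fl replicate 3 left out) to 0.133 (Pdk4fl/fl replicate 1 left out), passing only in the former case. *Gpr137*, which shares 590 bases with *Bad* on the opposite strand, had 144 to 487 counts and was itself higher in Pdk4SMKO cells (log2 fold change 0.92), and its part in the value for *Bad* was not tested.

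*Bcl2l11* (MGP_C57BL6NJ_G0026892, chromosome 2 from 135559133 to 135595560) encodes BIM, which binds all the guardians. Its values were 25.8, 20.2 and 20.7 CPM in Pdk4fl/fl and 15.5, 29.8 and 31.4 CPM in Pdk4SMKO libraries. Of the Pdk4SMKO libraries 1 lay below all 3 Pdk4fl/fl libraries and the other 2 above them. The log2 fold change was 0.20 (95% interval -0.35 to 0.75, edgeR adjusted p = 0.472), and 0.47 (adjusted p = 0.0222) when the low library, Pdk4SMKO replicate 1, was left out. That library was also the highest of the 3 in *Bcl2l1*, *Bax*, *Bak1*, *Bok*, *Bid* and *Bad*.

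**Figure D2:**
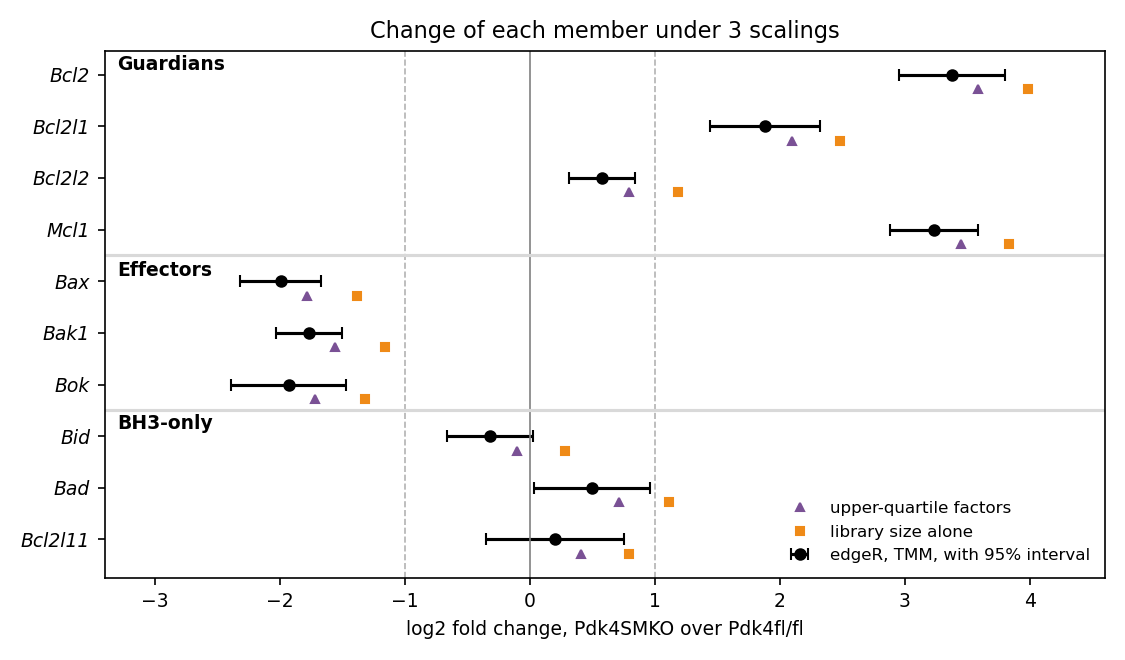
The log2 fold change of each member, Pdk4SMKO over Pdk4fl/fl, from edgeR with TMM (black, with 95% intervals), with upper-quartile factors (triangles) and with library size alone (squares). Dashed lines mark 2-fold. Under the 3 scalings the guardians stayed above 0 and the effectors below -1, while *Bid* changed sign with library size alone. Relative to *Actb*, which is not drawn, *Bcl2l1* and *Bcl2l2* fell below 0 and *Bcl2* and *Mcl1* stood near 0.

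Scaling moved all members together. With library size alone the median log2 fold change over all genes shifted by 0.60, and *Mcl1* read 3.84, *Bcl2* 3.99 and *Bcl2l1* 2.48, while *Bax* read -1.38, *Bak1* -1.16 and *Bok* -1.32. *Bcl2l2* at 1.19 and *Bad* at 1.12 then passed 2-fold as well, and *Bid* turned to 0.29. Relative to *Actb*, the reference gene of the study's RT-qPCR, the picture for single guardians differed, because *Actb* was itself 9.58-fold higher in Pdk4SMKO cells (247 ± 24.0 and 2363 ± 116 CPM, SD, n = 3). On that scale *Bcl2* read 0.12, *Mcl1* -0.013, *Bcl2l1* -1.37 and *Bcl2l2* -2.68, with *Bax* at -5.24, *Bak1* at -5.03 and *Bok* at -5.23. In bulk samples such as these, fewer cells of a type and less RNA per cell cannot be told apart.

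Ratios between members within a library do not depend on the scaling between libraries, and the balance of the family is given in this form, on counts per kb of gene length. The level of such a ratio rests on the gene lengths used, 869 bases for *Bax* and 9129 for *Bcl2*. The ratio of *Bax* to *Bcl2* was 753, 1148 and 777 in Pdk4fl/fl libraries and 24.0, 22.1 and 18.2 in Pdk4SMKO libraries. It was 41.1-fold lower in Pdk4SMKO cells, a difference of -5.36 on the log2 scale, where the SD between libraries was 0.34 in Pdk4fl/fl and 0.20 in Pdk4SMKO. The summed effectors exceeded the summed guardians 11.6-, 18.0- and 18.3-fold in Pdk4fl/fl libraries. In Pdk4SMKO libraries this ratio was 0.817, 0.846 and 0.822, so that guardian transcripts outnumbered effector transcripts per kb in all 3. The difference was -4.24 on the log2 scale. For BH3-only to guardian transcripts the ratio went from 0.688, 0.886 and 1.01 to 0.192, 0.199 and 0.1995, a difference of -2.11. The groups did not overlap in any of the 3 ratios, and no test was made on these sums.

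The sums behind these ratios are given on the TMM scale. The guardians summed to 25.3 ± 3.20 CPM per kb in Pdk4fl/fl and 123.5 ± 6.87 in Pdk4SMKO libraries (SD, n = 3). The effectors went the other way, from 395.9 ± 53.1 to 102.3 ± 5.17 CPM per kb. The BH3-only members summed to 21.5 ± 1.68 and 24.3 ± 0.817 CPM per kb. Unlike the ratios, these sums move with the scaling. Relative to *Actb* the guardians *Bcl2l1* and *Bcl2l2* were lower in Pdk4SMKO cells, and *Bcl2* and *Mcl1* were almost level between the genotypes.

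The makeup of the guardians differed between the genotypes, while the ranges of the effectors' shares overlapped. In Pdk4fl/fl libraries *Bcl2l1* made up 38.7 ± 5.97% of guardian counts per kb, *Mcl1* 30.3 ± 4.10%, *Bcl2l2* 29.5 ± 3.05% and *Bcl2* 1.47 ± 0.416% (SD, n = 3). In Pdk4SMKO libraries *Mcl1* alone made up 58.6 ± 2.66%, *Bcl2l1* 29.3 ± 3.74%, *Bcl2l2* 8.99 ± 0.798% and *Bcl2* 3.08 ± 0.475%. The ranges of the 2 genotypes did not overlap for *Mcl1*, *Bcl2l2* and *Bcl2* and did for *Bcl2l1*. *Bax* supplied 80.5 ± 2.87% of effector counts per kb in Pdk4fl/fl and 78.5 ± 1.10% in Pdk4SMKO libraries, with *Bak1* at 16.4 ± 2.65% and 18.4 ± 0.523% and *Bok* at 3.13 ± 0.240% and 3.13 ± 0.665%. Among the BH3-only members *Bid* had 41.2 ± 7.92% and 28.9 ± 3.04%, *Bad* 45.8 ± 10.5% and 57.9 ± 2.44% and *Bcl2l11* 13.0 ± 2.73% and 13.2 ± 4.83%.

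**Figure D3:**
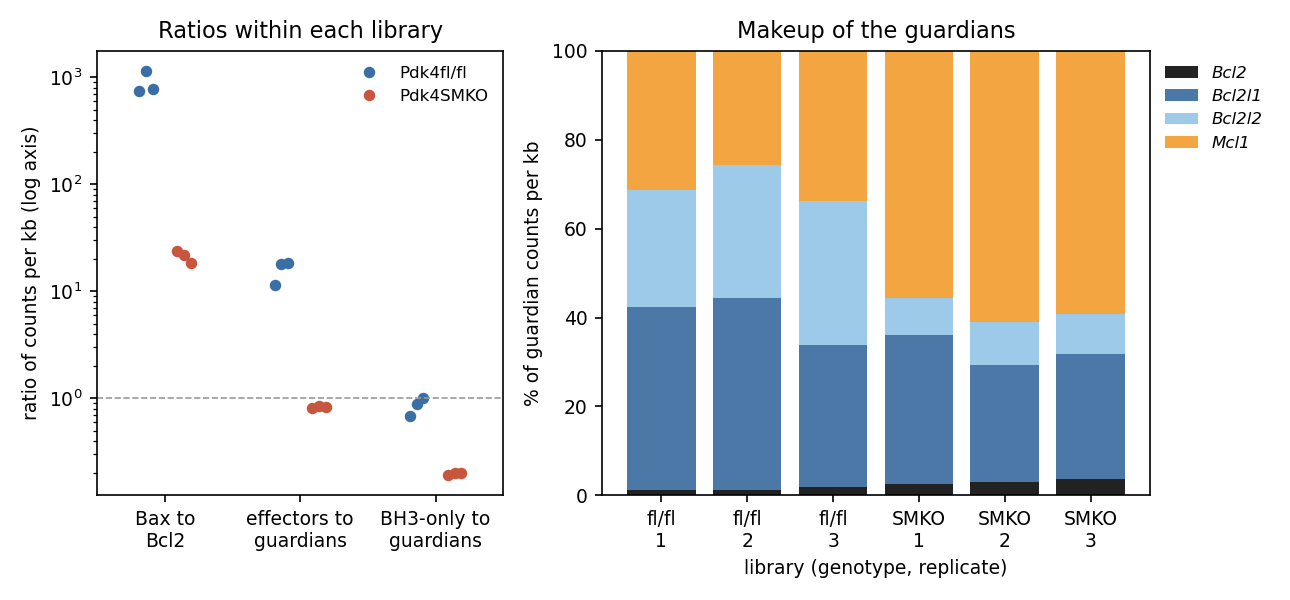
Left, ratios of counts per kb within each library (log axis), with Pdk4fl/fl in blue and Pdk4SMKO in red and a dashed line at 1. Right, each guardian's percentage of guardian counts per kb in the 6 libraries. Effectors exceeded guardians in every Pdk4fl/fl library (11.6 to 18.3) and in no Pdk4SMKO library (0.817 to 0.846), and *Mcl1* took the largest share in all 3 Pdk4SMKO libraries.

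Per length, *Bax* was the highest member in both genotypes, at 319.5 ± 52.9 CPM per kb in Pdk4fl/fl and 80.3 ± 3.13 in Pdk4SMKO libraries (SD, n = 3). In Pdk4fl/fl cells *Bak1* followed at 64.1, then *Bok* (12.3), *Bad* (9.97), *Bcl2l1* (9.87), *Bid* (8.76), *Mcl1* (7.69) and *Bcl2l2* (7.41), and each neighbouring pair from *Bok* to *Bcl2l2* had ranges that overlapped. *Bcl2l11* (2.77) and *Bcl2* (0.366) were lower and stood apart. In Pdk4SMKO cells the order was *Bax*, *Mcl1* (72.3), *Bcl2l1* (36.4), *Bak1* (18.8), *Bad* (14.1), *Bcl2l2* (11.1) and *Bid* (7.02), with no overlap between neighbours. *Bcl2* (3.78), *Bok* (3.22) and *Bcl2l11* (3.18) closed the order with overlapping ranges. Per length, *Mcl1* was thus next to *Bax* in Pdk4SMKO cells, and in Pdk4fl/fl cells it stood among several members of like level. This order rests on the gene lengths used, 869 bases for *Bax* and 3418 for *Mcl1*. In CPM without division by length, *Mcl1* (247) and *Bcl2l1* (167) stood above *Bax* (69.8) in Pdk4SMKO cells.

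The genes around the family were read from 6 lists, of which 61 genes were tested, and 14 of these were higher, 15 lower and 32 not called, with a median log2 fold change of -0.08 beside 0.12 over all genes. These counts stand beside the 59.3% of all genes tested that were called. Values are CPM, mean ± SD of 3 libraries per genotype, and adjusted p-values are edgeR's. *Bik*, *Pmaip1*, *Bbc3*, *Diablo*, *Casp9*, *Apaf1*, *Cycs*, *Casp8*, *Birc2*, *Trp53*, *Rela* and *Atf4* were named after their values were seen.

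Of the other BH3-only and BCL2-like genes, 9 were tested, 4 rose and 2 fell (median 0.13). *Bmf*, whose protein is released from the cytoskeleton to bind guardians, rose from 0.878 ± 0.476 to 38.3 ± 14.2 CPM (log2 fold change 5.38, adjusted p = 9.79e-07), and *Bik*, another BH3-only gene, from 0.565 ± 0.281 to 8.84 ± 1.65 CPM. The Pdk4fl/fl levels of both are near the limit of detection, which a count of 3 puts between 0.165 and 0.227 CPM in these libraries. *Bnip3l*, a receptor for mitophagy, fell from 370.1 ± 41.6 to 119.9 ± 14.7 CPM (log2 fold change -1.63, adjusted p = 2.3e-06). *Pmaip1*, which encodes the MCL1-binding protein NOXA, fell from 72.1 ± 5.00 to 26.4 ± 5.89 CPM. *Bbc3*, which encodes PUMA, was at 17.3 ± 2.55 and 10.1 ± 3.40 CPM (log2 fold change -0.78, adjusted p = 0.0165), short of 2-fold. The BH3-only genes outside the members thus changed in both directions. *Hrk*, *Moap1*, *Bcl2l10*, *Bcl2l14* and *Bcl2l15* did not pass the filter.

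Downstream of the mitochondria, 13 genes of the apoptosome and of mitochondrial release were tested, 2 rose and 2 fell (median 0.02). *Casp6*, an executioner caspase, rose from 6.34 ± 1.11 to 19.5 ± 1.66 CPM (log2 fold change 1.63, adjusted p = 1.97e-05) and *Diablo*, which counters the inhibitors of apoptosis, rose from 12.1 ± 0.538 to 24.7 ± 0.362 CPM (log2 fold change 1.03, and 0.996 without Pdk4fl/fl replicate 1). *Vdac2*, an outer membrane channel that holds BAK, fell from 558 ± 81.5 to 221 ± 6.52 CPM (log2 fold change -1.34, adjusted p = 6.81e-06). The core apoptosome genes were short of 2-fold and not called: *Apaf1* stood at 33.9 ± 2.17 and 43.5 ± 6.43 CPM, *Cycs*, cytochrome c, at 50.7 ± 14.1 and 30.4 ± 2.03 CPM and the initiator *Casp9* at 7.78 ± 1.74 and 13.5 ± 0.923 CPM. Their log2 fold changes were 0.36, -0.74 and 0.79. Each passed by the adjusted p alone (edgeR, 0.0404, 0.0041 and 0.00474), as did 79.1% of all genes tested. Among 6 inhibitors of apoptosis 2 rose and 1 fell (median 0.85). *Xiap*, a gene on the X chromosome whose protein binds caspases directly, rose from 15.7 ± 1.66 to 102 ± 15.4 CPM (log2 fold change 2.70, adjusted p = 1.69e-07). *Birc3*, a ubiquitin ligase and target of NF-κB, fell 27.5-fold, from 339.9 ± 28.5 to 12.4 ± 1.84 CPM (log2 fold change -4.78, adjusted p = 1.15e-08). Its neighbour and relative *Birc2* was at 37.5 ± 7.96 and 61.9 ± 7.48 CPM, short of 2-fold.

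In the death receptor branch that leads to BID, 5 of 9 genes rose and 1 fell (median 1.10). *Cflar*, which encodes the caspase-8 inhibitor FLIP, rose from 22.2 ± 2.32 to 102 ± 2.08 CPM (log2 fold change 2.20, adjusted p = 1.6e-07). *Casp8* rose from 16.1 ± 2.72 to 34.5 ± 2.65 CPM (log2 fold change 1.10, and 0.98 without Pdk4fl/fl replicate 1), near the limit of 2-fold. *Tnfrsf10b*, the mouse receptor for TRAIL, fell from 79.0 ± 5.37 to 20.6 ± 6.40 CPM (log2 fold change -1.94, adjusted p = 9.19e-06). The genes that rose thus held both an inhibitor of the branch and the caspase that cleaves BID.

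Among 13 genes whose proteins modify or bind member proteins, 1 rose and 4 fell (median -0.71). *Fbxw7*, part of a ubiquitin ligase for MCL1, rose from 3.68 ± 1.61 to 15.6 ± 0.211 CPM (log2 fold change 2.07, adjusted p = 5.99e-05). *Pim3*, a kinase that phosphorylates BAD, fell from 313 ± 33.4 to 74.2 ± 26.3 CPM (log2 fold change -2.08, adjusted p = 1.7e-05). Of 11 transcription factors known to control members, 0 rose and 5 fell by edgeR's call rule (median -0.94), and by the adjusted p alone 1 was higher and 7 lower. Over all genes tested, 32.8% were higher and 26.5% lower by the call rule, and 42.0% and 37.1% by the adjusted p alone. The largest change was in *Ddit3*, the stress factor CHOP, from 439 ± 21.2 to 22.3 ± 6.39 CPM (log2 fold change -4.29, adjusted p = 4.93e-08). *Rela*, the NF-κB subunit p65, fell from 1376 ± 247 to 130.2 ± 13.2 CPM, *Trp53*, which encodes p53, from 750.3 ± 38.9 to 105 ± 5.09 CPM and *Atf4* from 1171 ± 42.4 to 219.5 ± 6.34 CPM. Whether these factors had a part in the members' levels was not tested.

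**Figure D4:**
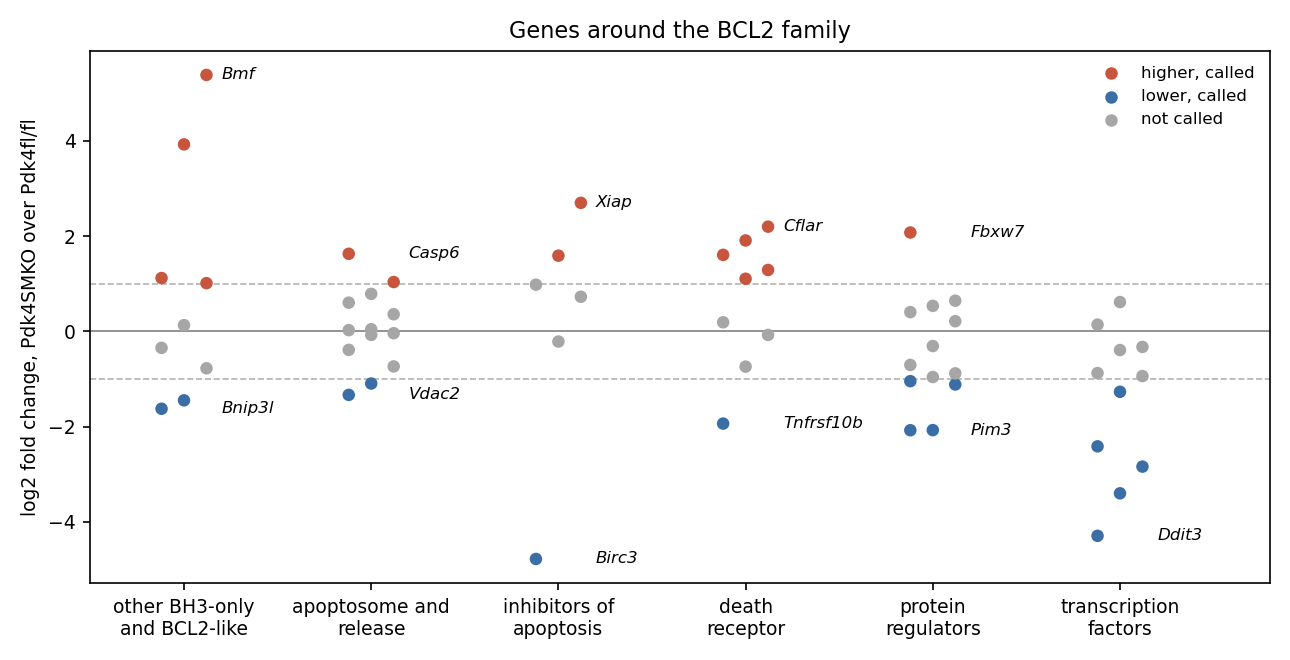
The log2 fold change (Pdk4SMKO over Pdk4fl/fl, edgeR) of each of the 61 tested genes of the 6 lists, 1 column a list, with called genes in red (higher) or blue (lower), the others in grey and dashed lines at 2-fold. The called genes with the largest change each way in a list and at least 10 CPM in 1 genotype are written at their height beside its column. The transcription factors held 5 blue points and no red one, while 5 of the 9 death receptor genes were red. Over all genes tested, 32.8% were called higher and 26.5% lower.

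Markers of other cell types moved with genotype as well, and their part in the members' values was not tested. The counts of markers called here stand beside 32.8% higher and 26.5% lower over all genes tested. Mesothelial markers summed to between 74.2 and 99.99 CPM in Pdk4fl/fl and between 723 and 1325 CPM in Pdk4SMKO libraries, all 7 tested of 8 listed were higher, and *Msln* went from 6.43 ± 1.31 to 410.0 ± 174 CPM. Fibroblast markers summed to between 121 and 148 and between 283 and 612 CPM, with 3 of 6 higher and 1 lower, led by *Dcn* (92.7 ± 11.9 and 434 ± 165 CPM). Macrophage markers summed to between 21.4 and 38.0 and between 9.71 and 30.5 CPM, with *Adgre1*, *C1qa*, *C1qb* and *Tyrobp* at 0 in all 3 Pdk4fl/fl libraries, 5 of 6 tested higher in Pdk4SMKO cells and the most abundant, *Cd68*, lower (31.2 ± 8.78 and 4.29 ± 2.18 CPM). Endothelial markers summed to between 14.1 and 23.7 and between 2.84 and 5.62 CPM, both of the 2 tested being lower, with *Kdr* at 16.5 ± 4.44 and 2.96 ± 1.21 CPM. Lymphocyte markers came to between 4.01 and 4.89 and between 0.0491 and 0.0878 CPM, the former from *Cd79a*, with *Cd3e*, *Cd3g* and *Ms4a1* at 0 in all Pdk4fl/fl libraries. Proliferation markers, 1 of 6 higher and 2 lower, summed to between 392 and 469 and between 234 and 390 CPM, and *Top2a* was at 166 ± 23.2 and 133 ± 36.9 CPM.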

How the data were processed

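RNA was sequenced from 6 cultures of Ang II-treated MASMCs, grouped by the genotype in their labels (3 Pdk4fl/fl and 3 Pdk4SMKO). The count table that the authors deposited holds raw, unnormalized read counts for 41721 genes, with other columns for gene length and position. The labels name a SMARTER library kit and the paper another. The submitters' processing notes name GRCm39, whereas the gene identifiers and positions are those of Ensembl's C57BL/6NJ strain annotation. Aligner, counting program and use of strand are not given in the sources used here.

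Counts were filtered with filterByExpr, normalized by TMM and tested in edgeR 4.0.16 (R 4.3.3, limma 3.58.1) by the quasi-likelihood F-test with genotype as the single factor. The p-values of the 14085 genes tested were adjusted together by Benjamini and Hochberg's method, and calls required both 2-fold (1 on the log2 scale) and an adjusted p below 0.05. The p-values measure the spread between these cultures, which may share animals. An exact permutation test of a single gene cannot go below p = 0.1 with 3 against 3. CPM are counts relative to the TMM-adjusted library size, and CPM per kb are these divided by the gene length in the table. The detection floor was set at 3 counts and covers counting error alone. On simulated counts edgeR called 200 of 200 changed genes and 1 unchanged gene among 13999, and DESeq2 1.42.0 called 200 and 0. In that simulation only these 200 well-counted genes were changed, in both directions, with the same dispersion for all genes. It thus did not cover data in which 59.3% of the genes tested were called, as here.

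The members and the 6 pathway and 7 marker lists were chosen with earlier results of these data known. Named were all members, *Pdk4*, genes overlapping a member, the called gene with the largest change each way in each pathway list with at least 10 CPM in 1 genotype, and the most abundant marker of each list. *Actb*, *Xist*, the further cell type markers and the genes listed in the text as such were named after their values were seen. Listed genes that no row of the table names (*Bcl2a1a*, *Bcl2a1b*, *Bcl2a1d*, *Vdac3*, *Ywhaz*, *Lyz2*) were not analysed. BH3 cores were read from GENCODE M21 transcripts and promoters from RefSeq, both on GRCm38, another assembly than that of the counts. Alternatives were DESeq2, RLE, upper-quartile and library-size scaling, other filters and thresholds, a fit restricted to protein-coding genes, a replicate block, leaving out each library, and ratios without length. The ratio to *Actb* was added after seeing the data.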

Additional observations from a re-analysis of the deposited data

How the results depend on the processing

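The counts of members called (3 higher, 3 lower) and the directions of *Bcl2*, *Bcl2l1*, *Bcl2l2*, *Mcl1*, *Bax*, *Bak1*, *Bok*, *Bad* and *Bcl2l11* held under all 14 alternative fits, with the exception of library size alone for the count of members higher, which was then 5. That scaling also gave 2390 lower genes over all genes, and 22 higher and 9 lower genes in the pathway lists, raised the share of calls that were higher from 55.3% to 72.1%, turned *Bid* to 0.29, and left *Vdac2* (-0.72) and *Pmaip1* (-0.84) short of 2-fold. By construction it leaves the median of all genes 0.60 higher on the log2 scale, and upper-quartile factors leave it 0.21 higher. The ratio to *Actb*, chosen after seeing the data and without a test, turned *Bcl2l1* to -1.37, *Bcl2l2* to -2.68, *Bad* to -2.72 and *Bcl2l11* to -3.12. It left *Bcl2* and *Mcl1* (-0.013) near 0. These shifts arise by construction, since *Actb* was itself higher. *Diablo* (0.996) and *Casp8* (0.98) fell short of 2-fold without Pdk4fl/fl replicate 1, and the cause was not tested.

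Leaving out each library moved the log2 fold change of *Bcl2* between 3.27 and 3.53, of *Mcl1* between 3.11 and 3.37, of *Bcl2l1* between 1.70 and 2.03 and of *Bax* between -2.13 and -1.90. *Bid* then ranged between -0.42 and -0.24, with an adjusted p from edgeR between 0.0272 and 0.252, and *Bcl2l11* between 0.03 and 0.47. The adjusted p of *Bad* missed 0.05 with DESeq2 (0.0512), with RLE factors in edgeR (0.0562) and with protein-coding genes alone (0.0602). The difference in the ratio of effectors to guardians stayed between -4.45 and -4.12 on the log2 scale, and was -4.12 without division by length. Whether the replicate numbers pair the samples is not known, and 3 libraries per genotype are too few to decide it. Libraries of the same number correlated at 0.0396, 0.0604 and 0.176 in their deviations from the group means. Pdk4fl/fl replicates 2 and 3 correlated best with the Pdk4SMKO library of their own number, and replicate 1 with that of number 2 (0.0431). With the replicate block 4577 genes were higher and 3704 lower, and the same numbers of members were called, while the adjusted p of *Bid* from edgeR became 0.0484. *Bcl2* in Pdk4fl/fl cells rests on the fewest counts among the members (47 to 54).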
